A study of Mus musculus with 2 samples.

Results

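The Bmi1-dependent uH2A peaks described here are those that lie close together on the autosomes of mouse embryonic fibroblasts (MEFs). The deposited list, in which the wild-type library was set against the null library, holds 16406 peaks, and 16205 of them are autosomal. An autosomal peak was taken as a member when at least 2 other listed peaks had their midpoints within 20 kb of its own midpoint. This gave 1661 members, or 10.2% (9.79 to 10.7) of the autosomal peaks. Members no more than 20 kb apart were joined into 646 clusters. The peaks were thus chosen by their many wild-type tags, their few null tags and their spacing, so the tags inside them are a description of the choice and were not tested. Another 4209 autosomal peaks had 1 other peak within 20 kb and are called paired, and 10335 had none and are called isolated. On the sex chromosomes, which the rule leaves out, 0 of the 188 peaks of chromosome X and 3 of the 13 peaks of chromosome Y had 2 neighbours within 20 kb.

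Chromatin came from untreated C57BL/6 MEFs of littermate embryos, wild-type for Bmi1 or null for it, and both lines had been immortalised with TBX2. Fragments carrying uH2A were pulled down with the E6C5 antibody and sequenced as tags of 25 bp, with 1 library per genotype. Depth was 6114925 tags for wild-type and 8020248 for null cells, of which 33.0% and 34.5% repeated a position and strand already seen. There is therefore no spread between replicates, the genotype cannot be told apart from the cell line or the library, and every interval below is an exact 95% interval that covers counting error only. Tags amplified by PCR are not independent molecules, so counts are also given with 1 tag kept per position and strand (distinct tags). Ratios are wild-type to null tags after multiplying the wild-type tags by 1.31, the quotient of the library totals. For distinct tags the factor was 1.28, the quotient of the totals of distinct tags. All peak positions are on mm8.

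Ubiquitylated H2A is a histone mark set by Polycomb repressive complex 1, in which the Ring1 proteins carry the ligase activity and Bmi1 is a partner that raises it. The mark is known from silent developmental genes, where it can lie beside the H3K27me3 mark of Polycomb repressive complex 2, and also as broad low-level signal over chromatin. Peak calling reports places where tags pile up, so a broad raised region may appear in a list as several neighbouring peaks.

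Of the members, 70 peaks lay on promoters named in the study's table of promoters with a peak, and these held 67 genes. All 67 could be matched to a current symbol, 46 had a promoter entry in RefSeq (GRCm38.p6), and 38 had exactly 1 entry. Each entry runs from 250 bases before to 50 bases after the gene's start. The 6 entries below are shown because their peaks are described further on and because they span the range from few to many CG dinucleotides, the bases in capitals. The letters searched were C followed by G, which reads the same on both strands. Positions are on GRCm38.p6, not on the mm8 build of the peaks: Hoxd4 at chr2:74721728-74722027 on the plus strand, Il9r at chr11:32200230-32200529 on the minus strand, Prss33 at chr17:23835718-23836017 on the minus strand, Cxcl14 at chr13:56296502-56296801 on the minus strand, Pwp2 at chr10:78185100-78185399 on the minus strand and Acap3 at chr4:155891625-155891924 on the plus strand.
Hoxd4: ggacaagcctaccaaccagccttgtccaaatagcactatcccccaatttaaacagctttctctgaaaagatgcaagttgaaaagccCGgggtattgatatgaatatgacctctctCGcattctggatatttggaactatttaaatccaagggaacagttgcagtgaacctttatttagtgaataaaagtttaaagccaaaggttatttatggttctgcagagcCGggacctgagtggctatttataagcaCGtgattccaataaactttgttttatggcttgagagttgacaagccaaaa
Il9r: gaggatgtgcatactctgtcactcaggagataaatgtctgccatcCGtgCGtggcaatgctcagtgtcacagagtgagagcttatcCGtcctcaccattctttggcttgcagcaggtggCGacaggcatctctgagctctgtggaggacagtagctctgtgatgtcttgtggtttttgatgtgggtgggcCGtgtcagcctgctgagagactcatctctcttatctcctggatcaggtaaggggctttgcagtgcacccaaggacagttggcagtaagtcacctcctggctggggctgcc
Prss33: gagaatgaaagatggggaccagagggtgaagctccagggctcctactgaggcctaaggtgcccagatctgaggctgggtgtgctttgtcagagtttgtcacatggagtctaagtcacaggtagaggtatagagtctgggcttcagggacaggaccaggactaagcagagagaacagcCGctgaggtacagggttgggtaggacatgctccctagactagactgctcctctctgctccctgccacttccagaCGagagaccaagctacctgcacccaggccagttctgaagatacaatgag
Cxcl14: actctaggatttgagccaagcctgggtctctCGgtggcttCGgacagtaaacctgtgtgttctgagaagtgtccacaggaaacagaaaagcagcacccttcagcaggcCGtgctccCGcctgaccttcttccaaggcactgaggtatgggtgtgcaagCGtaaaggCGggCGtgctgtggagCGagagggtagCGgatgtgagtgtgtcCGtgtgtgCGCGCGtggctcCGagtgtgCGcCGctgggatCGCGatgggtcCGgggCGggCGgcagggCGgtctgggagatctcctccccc
Pwp2: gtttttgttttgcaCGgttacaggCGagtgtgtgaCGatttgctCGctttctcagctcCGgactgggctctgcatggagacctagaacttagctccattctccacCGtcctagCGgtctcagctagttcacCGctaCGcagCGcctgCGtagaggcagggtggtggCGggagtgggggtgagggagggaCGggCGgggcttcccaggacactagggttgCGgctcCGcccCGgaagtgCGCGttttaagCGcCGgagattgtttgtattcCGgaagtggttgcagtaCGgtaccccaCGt
Acap3: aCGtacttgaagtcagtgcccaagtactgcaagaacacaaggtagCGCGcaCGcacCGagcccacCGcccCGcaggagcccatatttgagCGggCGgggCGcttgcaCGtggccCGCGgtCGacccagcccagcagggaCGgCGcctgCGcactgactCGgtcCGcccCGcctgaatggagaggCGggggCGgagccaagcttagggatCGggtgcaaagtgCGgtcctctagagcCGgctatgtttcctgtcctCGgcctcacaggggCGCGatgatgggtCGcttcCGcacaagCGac

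The promoters with few CG dinucleotides were those of Prss33 with 2, Hoxd4 with 4 and Il9r with 5. Among all 32851 RefSeq entries of this length, 85.9%, 68.6% and 62.0% held at least as many. Those of Cxcl14, Pwp2 and Acap3 held 22, 24 and 31, and 23.1%, 19.98% and 10.6% of all entries held at least as many. Over the 38 genes with 1 entry the median was 15 (quartiles 4.25 and 22), and over all entries it was 7 (quartiles 3 and 20). The genes of member promoter peaks thus included both kinds. Entries were matched by symbol, and whether a printed start is the one that lies under the mm8 peak was not examined.

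Most clusters were small. A total of 317 clusters held 3 members, 77 held 4, and 27 held 5 or more, up to 9. In 201 clusters a member at the middle had its neighbours within 20 kb although these lacked a second neighbour of their own, so the cluster held 1 member, and 24 clusters held 2. Counting the 541 adjoining peaks that were not members, the cluster spans held 2202 listed peaks, or 13.6% of the autosomal ones. The spans had a median length of 22019 bp (quartiles 16522 and 29523) and a range from 2953 to 79746 bp, and together they covered 15.3 Mb, or 0.622% of the autosomes. Consecutive peaks in a cluster were separated by a median of 7836 bp (quartiles 3477 and 12749), and only 141 of the 1556 intervals, 9.06%, were at most 1 kb long. Between paired peaks the median was 8687 bp and 8.40% of 1834 intervals were at most 1 kb long. Most of a cluster was therefore sequence between peaks.

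Inside the peaks, members held a median of 15 wild-type tags (quartiles 12 and 20) and 2 null tags (1 and 4). Paired peaks held 14 and 2, and isolated peaks 13 and 2. Members were the widest class, with a median of 891 bp against 821 bp in paired and 703 bp in isolated peaks. They also rested on more distinct wild-type tags, a median of 8 against 7 and 6, and 46.8% of members (44.4 to 49.2) had 9 or more, against 38.7% and 28.1%. The summed tag ratio was lower in members than in isolated peaks, 9.13 (8.83 to 9.43) against 11.2 (11.0 to 11.3), but with distinct tags it was 5.69 (5.48 to 5.90) against 5.77 (5.67 to 5.87). The difference between the classes in this ratio was thus within the intervals once repeated positions were dropped. At the edge of the rule, the 122 peaks whose second neighbour lay at 19 to 20 kb had medians of 15 wild-type tags, 2 null tags and 7 distinct wild-type tags, and the 124 peaks with it just beyond, at up to 21 kb, had 14.5, 2 and 8.

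To give the number of members a background, the 16205 autosomal peaks were spread over 1 kb bins in proportion to the tags of both libraries, and the number expected to meet the rule was computed in closed form. This gave 855 members, so the listed peaks held 1.94 times as many (1.85 to 2.04). This Poisson interval, like those of the other quotients to an expectation, counts members as independent although a peak is a member only through its neighbours, so it is too narrow. With distinct tags as weights the expectation was 705 and the quotient 2.36. Null tags alone gave 819 and 2.03, and wild-type tags alone gave 986 and 1.68. The expectation lets peaks fall in the same bin, which listed peaks, with at least 233 bp between neighbours, seldom do. When the number of peaks in each 1 Mb was also kept, a setting chosen after the data had been seen, 1461 members were expected and the quotient fell to 1.14 (1.08 to 1.19). The number in each 1 Mb includes the clustered peaks themselves, so part of this fall is built into the setting.

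Pairs of peaks were also counted by their separation. Fewer pairs than expected lay close together, with 33 pairs of midpoints within 1 kb against 1084 expected, and 0.67 (0.62 to 0.72) times the expectation at 2 to 5 kb. The deficit within 1 kb is largely built in. Peaks with median widths of 703 to 891 bp and at least 233 bp between them can seldom have midpoints so close, whereas the expectation allows it. At 15 to 20 kb there were 988 pairs, 1.35 times the expectation (1.27 to 1.44). Beyond the 20 kb of the rule the quotient did not fall back: it was 1.61 (1.54 to 1.68) at 40 to 50 kb, 1.54 at 100 to 150 kb and still 1.46 (1.44 to 1.47) at 300 to 500 kb. Neighbouring was therefore not particular to the 20 kb scale by which the clusters were drawn.

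**Figure D1:**
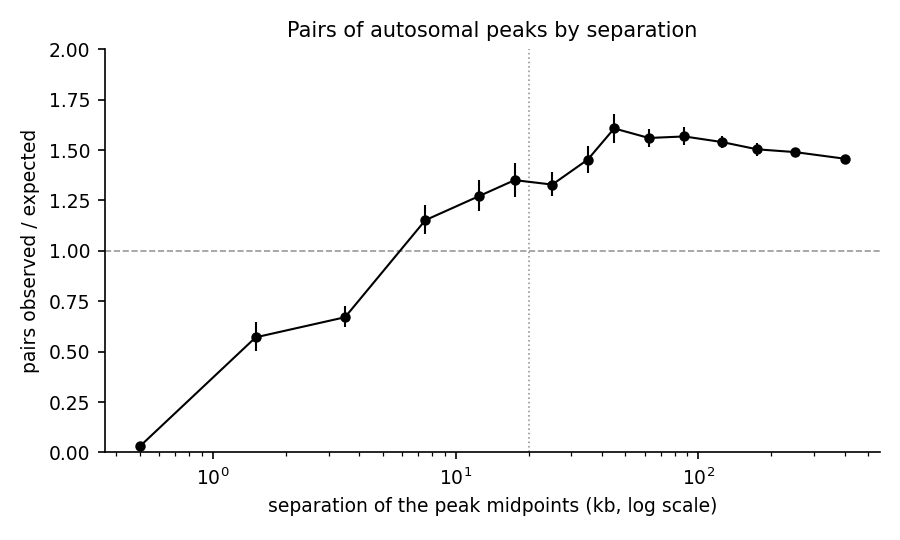
Pairs of autosomal peaks observed, divided by the number expected from placement by tags, against the separation of their midpoints in kb (log axis); points are classes of separation, bars are exact 95% Poisson intervals, the dashed line marks 1 and the dotted line marks the 20 kb of the rule. The quotient rises from 0.03 within 1 kb to 1.61 at 40 to 50 kb and is 1.46 at 300 to 500 kb. Listed peaks do not overlap, which limits the pairs at the shortest separations.

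Members were unevenly shared among the autosomes. Chromosome 4 held 191 members, 16.2% of its 1176 peaks and 5.36 times the 35.6 expected. Chromosomes 7, 8 and 12 followed, with 3.55, 3.44 and 3.18 times the expectation. At the other end, chromosome 14 held 18 members, 3.00% of its 600 peaks and 0.38 times the 47.0 expected, and chromosome 16 held 17, or 0.66 times the expectation. These expectations did not keep each chromosome's own number of peaks, which was 7.59 per Mb on chromosome 4 and 4.84 on chromosome 14. The quotients therefore mix how many peaks a chromosome had with how close they lay, and they are given without intervals. With distinct tags as weights chromosomes 14 and 16 stayed below 1, at 0.70 and 0.89. Chromosome 9 moved from 1.16 to 2.61 and chromosome 2 from 1.74 to 3.13. Outside the peaks, the tag ratio over whole chromosomes was highest on chromosome 4, at 1.09 (1.09 to 1.10), and lowest on chromosomes 16 and 14, both at 0.87. The order was not shared by all chromosomes: chromosome 3, with 3.61% of its peaks as members, had a ratio of 1.002, and chromosomes 2 and 8, with 13.1% and 13.9%, had 0.95 and 0.98. The part of this in the result was not tested.

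**Figure D2:**
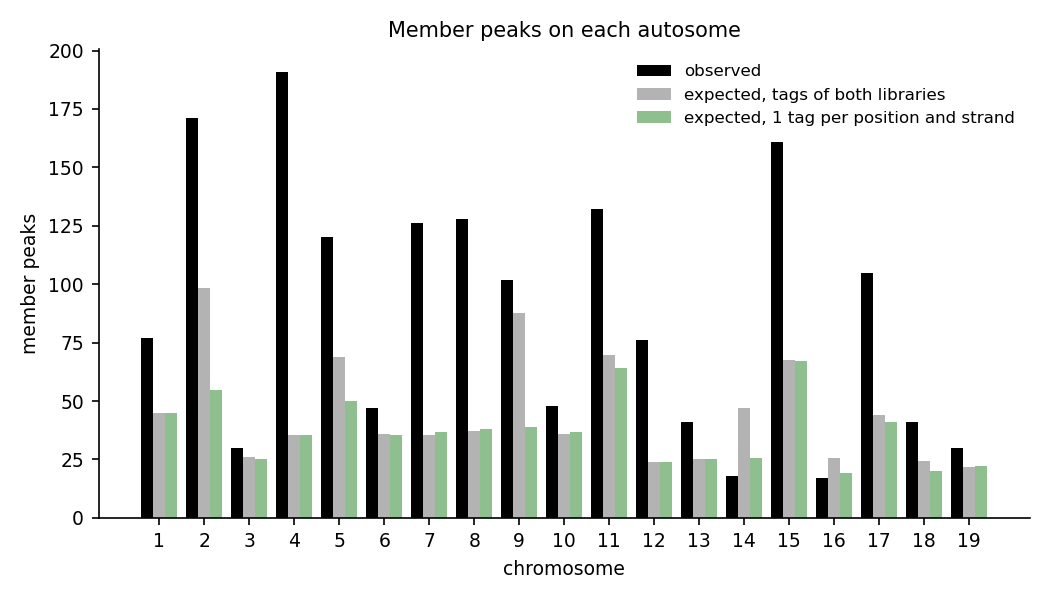
Member peaks on each autosome (black bars), beside the number expected from placement by the tags of both libraries (grey) and by 1 tag per position and strand (green). Chromosome 4 holds 191 members against 35.6 expected, and chromosome 14 holds 18 against 47.0. The expectations do not keep each chromosome's own number of peaks.

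Raised wild-type signal was not limited to the peaks. Between the peaks of clusters, leaving out 500 bp beside each peak because peak edges follow the wild-type tags, 51567 wild-type tags stood against 51747 null tags, which is 5.88 scaled wild-type and 4.50 null tags per kb and a ratio of 1.31 (1.29 to 1.32). Between paired peaks the ratio was 1.19 (1.18 to 1.21), within 10 kb of isolated peaks it was 1.07 (1.07 to 1.08), and over the autosomes outside peaks it was 0.97, with 3.06 and 3.16 tags per kb. With distinct tags the order was the same, at 1.27 (1.25 to 1.29), 1.17, 1.07 and 0.98. The sequence between clustered peaks therefore held more tags of both libraries than the autosomes at large, and among these more of the wild-type.

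The length of the interval made little difference. In clusters the ratio was 1.33 (1.26 to 1.39) over intervals of 1 to 5 kb, 1.30 over 5 to 10 kb and 1.31 (1.29 to 1.33) over 10 to 20 kb. Between paired peaks it was 1.21, 1.20 and 1.19. The ratio was lowest, at 1.23 (1.20 to 1.25), in clusters of 1 member. It was 1.41 in those of 2 members, 1.31 in those of 3, 1.40 in those of 4 and 1.46 (1.40 to 1.53) in those of 5 or more.

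Of the 646 clusters, 578 held 50 or more tags between their peaks. The lower bound of the ratio lay above 1 in 248 of these, 42.9%, and the upper bound lay below 1 in 10. The background for this count is 8.01% of 97842 windows of 20 kb without a peak. Windows with the upper bound below 1 made up 16.2%, and of 970 intervals between paired peaks 24.7% lay above 1. These places differ in depth, with medians of 151 tags per cluster, 92 per paired interval and 107 per window, which changes how often a bound can pass 1. The median ratio does not depend on depth in this way and was 1.29 in clusters, 1.21 between paired peaks and 0.91 in windows. With distinct tags 26.5% of these clusters and 3.70% of the windows lay above 1.

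The excess did not end at the outer peaks of a cluster. In the 20 kb on either side of the clusters the ratio was 1.27 (1.26 to 1.28), and in 319 of 578 clusters, 55.2%, the ratio between the peaks was above that in the cluster's own flanks. The medians were 1.29 and 1.25. Without leaving out the bases beside peaks the order was turned, with 1.21 between peaks and 1.25 in flanks. With the 1 Mb around each cluster as the scale in place of the library totals, the ratio between peaks was 1.09 (1.08 to 1.10) and 98 clusters lay above 1. Going outwards, the ratio was 1.30 within 5 kb, 1.22 at 20 to 50 kb, 1.16 at 100 to 200 kb and 1.05 (1.05 to 1.06) at 500 to 1000 kb, and it was 0.89 beyond 1 Mb. Around isolated peaks it was 1.07 within 5 kb and already 0.92 at 100 to 200 kb. Isolated peaks are more numerous than clusters, 10335 against 646. Sequence 100 to 200 kb from the nearest isolated peak thus lies where such peaks are sparse, so part of the faster fall is built in. Clusters thus lay in wide stretches in which wild-type tags were more frequent, and the ratio between their peaks was close to that next to them.

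**Figure D3:**
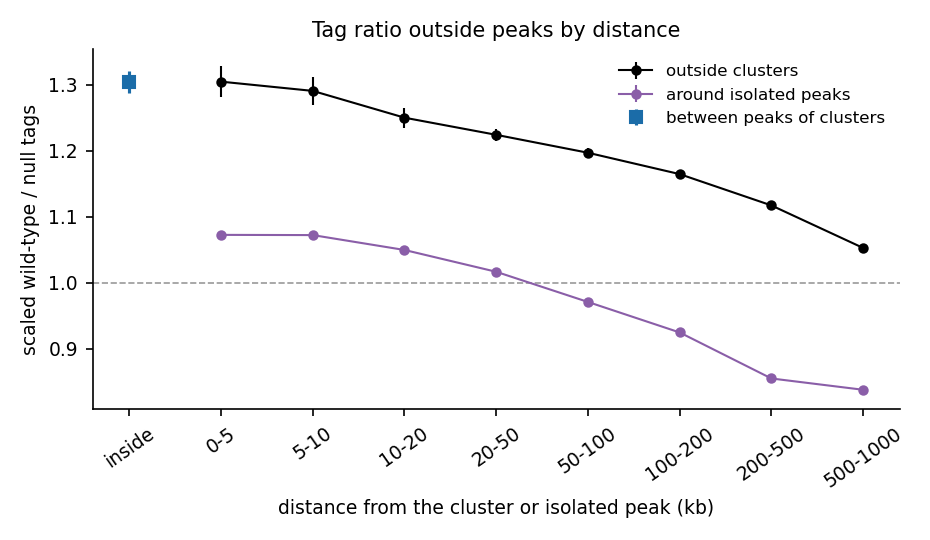
Scaled wild-type to null tags in 1 kb bins outside peaks, by distance in kb from the nearest cluster (black) or isolated peak (purple), with the bins between clustered peaks as a blue square; bars are exact 95% intervals and the dashed line marks 1. The ratio falls from 1.30 beside the clusters to 1.05 at 500 to 1000 kb, and around isolated peaks from 1.07 to 0.84.

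Tag density moved with the ratio, also where there was no peak. The windows of 20 kb without a peak were split by the tags of both libraries per kb, with the wild-type scaled, a comparison added after the data had been seen. Wild-type tags enter this density, so part of a rise of the ratio with it is built into the split. At 5 to 6 tags per kb their ratio was 0.84, at 8 to 9 it was 1.04, at 10 to 12 it was 1.22 and at 15 to 30 it was 1.49 (1.48 to 1.51). The sequence between clustered peaks held 10.4 tags per kb on average. The 2 sparsest classes held 2 clusters each. There the clusters had 0.85 (0.58 to 1.24) against 0.81 in the windows at 2.5 to 4 tags per kb. At 4 to 5 they had 0.82 (0.57 to 1.17) against 0.82. In the next classes the clusters had 0.97 (0.89 to 1.07, 20 clusters) against 0.84 at 5 to 6 and 1.09 (0.9998 to 1.20, 19 clusters) against 0.89 at 6 to 7. They had 1.17 (1.12 to 1.23) against 0.96 at 7 to 8, 1.23 (1.19 to 1.27) against 1.04 at 8 to 9 and 1.22 (1.18 to 1.26) against 1.11 at 9 to 10. In the classes from 10 to 12 and from 12 to 15 tags per kb the clusters had ratios of 1.34 (1.31 to 1.37) and 1.45 (1.41 to 1.48), against 1.22 and 1.37 in the windows. In the class from 15 to 30 the 34 clusters had 1.49 (1.42 to 1.56), the same as the windows to this precision. The part of tag density in the excess between clustered peaks was not tested further.

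**Figure D4:**
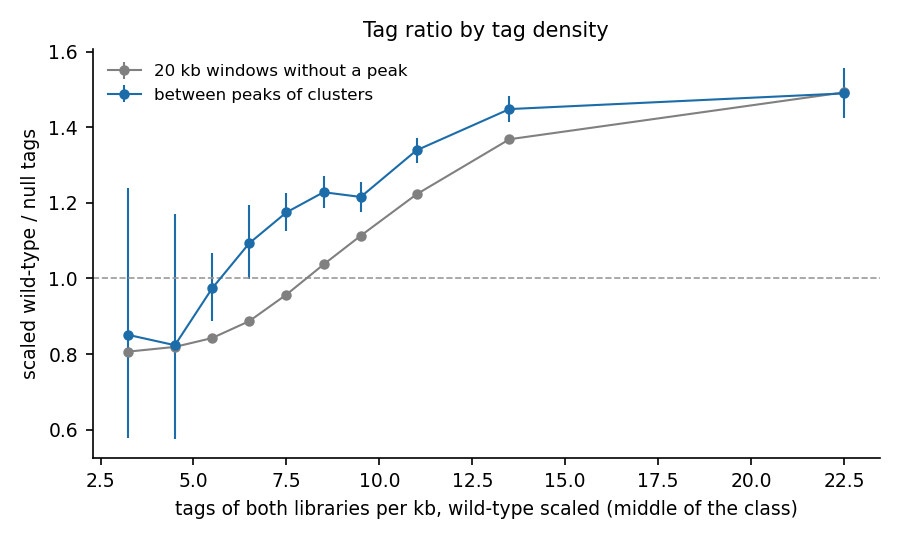
Scaled wild-type to null tags against the tags of both libraries per kb, for 20 kb windows without a peak (grey) and for the sequence between the peaks of clusters (blue); points stand at the middle of each class of density and bars are exact 95% intervals. Both rise with density, and both reach 1.49 in the class from 15 to 30 tags per kb.

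The cluster with the most members, 9, spanned chr8:125604918-125673844. Its peaks held 179 wild-type and 23 null tags, or 101 and 19 distinct tags. The single peaks ranged from 10 wild-type and 2 null tags to 38 and 5, so none of them made up the bulk of the cluster. Between the peaks it held 262 wild-type and 229 null tags, a ratio of 1.50 (1.25 to 1.80), and its flanks held 244 and 233, a ratio of 1.37 (1.14 to 1.65). Counted as distinct tags, the sequence between the peaks held 166 of each library, so the ratio there rested in part on repeated positions. A second cluster of the same chromosome, chr8:125210403-125246094, held 6 members with 110 wild-type and 22 null tags. It had 167 and 128 tags between its peaks, a ratio of 1.71 (1.35 to 2.17), and it held the promoter of Trhr2, a receptor for thyrotropin-releasing hormone, which was the only promoter under a member peak in the 9 clusters of 6 or more members. The member peak on it had 19 wild-type and 4 null tags, but the Trhr2 promoter itself held 10 and 12, so no excess.

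Both clusters of chromosome 12 with 8 members looked different. At chr12:112700861-112753800 the peaks held 158 wild-type and 26 null tags, while the sequence between them held 116 and 164, a ratio of 0.93 (0.72 to 1.18). Its flanks, with 201 and 148 tags, had a ratio of 1.78 (1.43 to 2.22). At chr12:85674233-85713478 the peaks held 150 and 29 tags and the sequence between them 74 and 97, a ratio of 1.001 (0.73 to 1.37). The flanks there had 151 and 147 tags, or 1.35 (1.07 to 1.70). In these clusters the wild-type tags lay in the peaks and around the cluster, with no excess between the peaks at this depth.

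**Figure D5:**
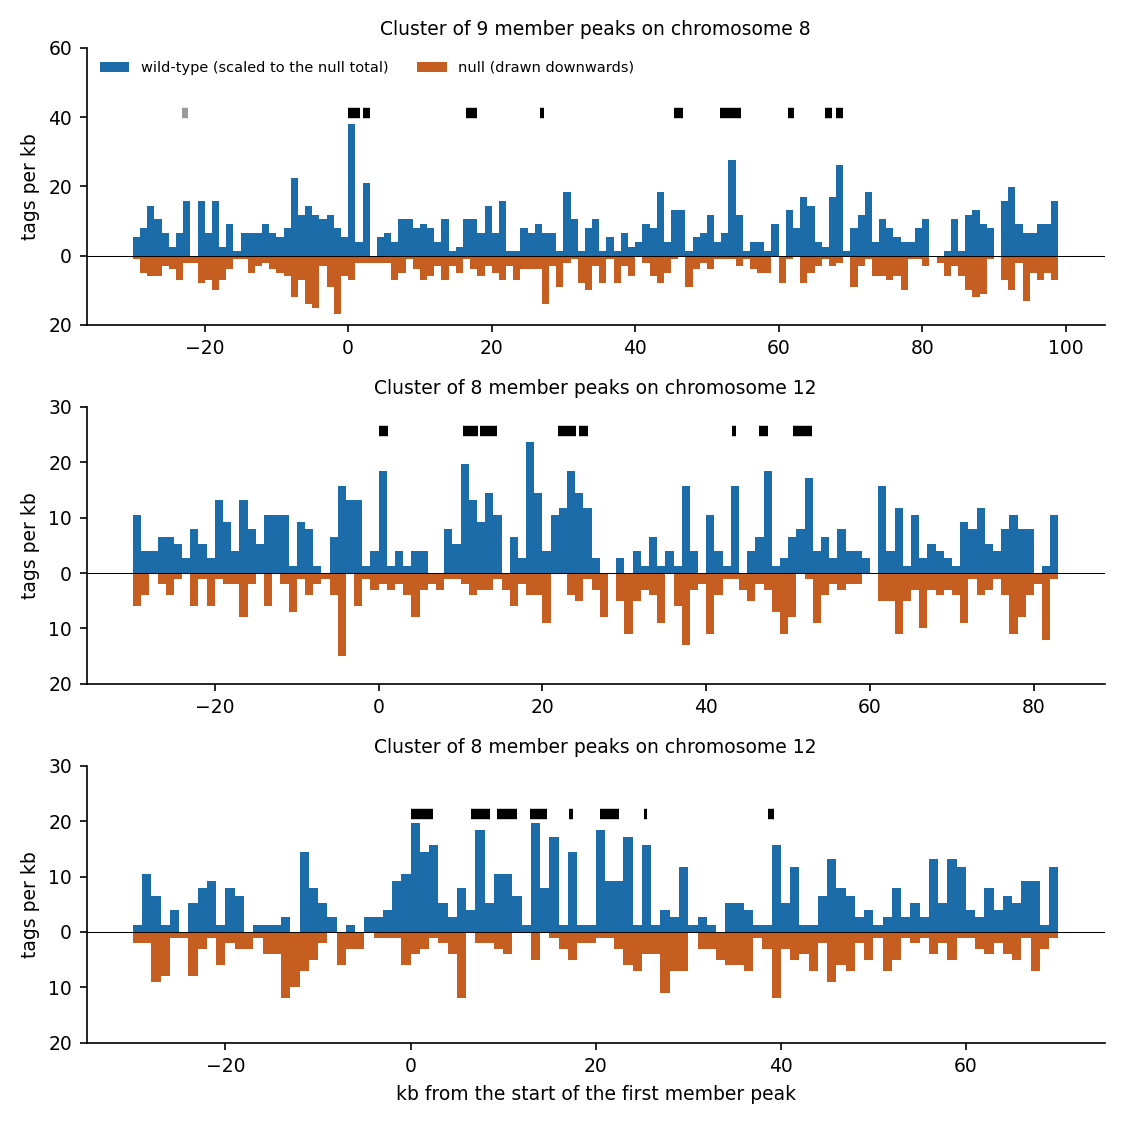
Tags per kb of the wild-type library, scaled to the null total (blue, upwards), and of the null library (orange, downwards), in the 3 clusters with the most members and 30 kb on either side, by distance in kb from the first member peak; black bars above mark member peaks and the grey bar another listed peak. Wild-type tags of the chromosome 8 cluster reach 38.0 per kb. Null tags reach 14 per kb inside this cluster and 17 in the sequence before it. The null library has tags between as well as under the peaks.

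The fourth cluster of this size, chr2:164792879-164849471, had 8 members and 1 adjoining peak. Its members held 120 wild-type and 15 null tags, and the sequence between its peaks held 234 and 204, a ratio of 1.50 (1.24 to 1.82), against 1.04 (0.83 to 1.29) in its flanks. Of the 10 clusters with the most members, where the tenth was taken from the 18 with 5 members by its wild-type tags in peaks, 8 had a lower bound above 1 between their peaks. This count is given for all tags only, repeated positions included. The most compact of the 10, at chr15:80232695-80247456, held 5 members in 14762 bp, with 55 wild-type and 38 null tags between them and a ratio of 1.90 (1.23 to 2.95). Counted as distinct tags these were 29 and 23, so this ratio too rested in part on repeated positions.

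The extremes of the ratio between peaks came from clusters with few tags. The highest was 3.40 (2.05 to 5.84) at chr8:97879542-97892972, from 57 wild-type and 22 null tags, beside flanks at 1.18 (0.97 to 1.44). The next, 2.83 (1.83 to 4.49) at chr4:148828506-148843798, came from 67 and 31 tags. The lowest was 0.35 (0.18 to 0.65) at chr8:125272770-125285736, from 14 wild-type and 52 null tags, in a cluster whose 3 members held 51 and 8 tags and that lay next to the cluster with Trhr2. These clusters were picked as the extremes of 578, and with 1 library per genotype their ratios have no further check.

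The share of peaks on promoters differed little between the classes, with overlapping intervals. Promoter peaks made up 4.21% of members (3.30 to 5.29), 4.06% of paired peaks (3.49 to 4.70) and 4.10% of isolated peaks (3.73 to 4.50). The 70 member peaks on promoters lay in 66 clusters, 10.2% of all, and held a median of 17 wild-type and 3 null tags, with ranges of 9 to 48 and 0 to 9. These tags, and those given for single genes below, are of the whole peak, which can reach beyond the promoter. A single cluster held peaks on the promoters of 2 genes.

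Among the promoter peaks with the most wild-type tags were those of genes with well-separated functions. Ing1, which encodes a PHD-finger protein of histone deacetylase complexes, had 48 wild-type and 9 null tags at chr8:11554452-11557738, or 30 and 8 distinct tags. The sequence between the 3 peaks of its cluster held 27 and 45 tags, a ratio of 0.79 (0.47 to 1.30), so no wild-type excess between its peaks was detectable at this depth. Ceacam16, which encodes a protein of the inner ear, had 42 and 4 tags at chr7:19015608-19020043, a peak of which only 8 wild-type tags and 1 null tag fell in the promoter itself. Omp, the olfactory marker protein gene, had 39 and 6 tags at chr7:98018922-98021532, and 95 and 77 tags lay between the peaks of its cluster, a ratio of 1.62 (1.19 to 2.21). Around Omp, unlike Ing1, the lower bound between peaks was above 1. Their intervals overlap and the Ing1 cluster held fewer tags between its peaks, so no difference between these clusters is shown.

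Other promoter peaks of this rank had 25 to 33 wild-type tags. Prss33, a serine protease gene, had 33 and 7 tags, and Acap3, whose product activates the GTPase of Arf proteins, had 32 and 8. The RefSeq entry printed above for the former gene is CG-poor and that for the latter CG-rich, and their peaks were of like size. B4galnt1, which makes complex gangliosides, had 28 and 7. Pwp2, a factor of small ribosomal subunit assembly, had 25 and 5. Between the peaks of their clusters the ratio was 0.93 (0.67 to 1.29) for Prss33, 1.45 (0.84 to 2.51) for Acap3 and 1.003 (0.71 to 1.40) for B4galnt1. It was 2.23 (1.63 to 3.09) for Pwp2, from 109 and 64 tags, the only lower bound above 1 among these 4.

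Developmental transcription factors, the genes best known as Polycomb targets, were few. Of all 661 genes with a promoter peak, 15 (2.27%) belonged to the list, and of the 67 genes of member peaks 2 (2.99%) did. Cdx1, a homeobox gene of the gut, had 39 wild-type and 8 null tags in its peak at chr18:61159570-61162105, and 85 and 61 tags between the 4 peaks of its cluster, a ratio of 1.83 (1.30 to 2.58). Hoxd4, a gene of the HoxD locus, had 19 and 4 tags in its peak at chr2:74522751-74524688, and 19 and 33 tags between the 3 peaks of its cluster, a ratio of 0.76 (0.41 to 1.37). The Hoxd4 cluster, in a locus covered by Polycomb marks in many cell types, thus had no detectable wild-type excess between its peaks at this depth.

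Secreted signals by name pattern also gave 2 of the 67 genes, against 16 of 661. Cxcl14, a chemokine gene, had 20 wild-type and 4 null tags, and 66 and 57 between the peaks of its cluster, a ratio of 1.52 (1.05 to 2.20). Il9r, taken in by its name although it encodes the receptor for interleukin 9, had 27 and 1 tags, and 138 and 126 between the peaks, a ratio of 1.44 (1.12 to 1.84). Channels, transporters and receptors by name pattern gave 4 of 67 genes (5.97%), against 66 of 661 (9.98%). The patterns do not take in every receptor, Trhr2 and Il9r among them, so these shares are not shares of all such genes. The 4 genes were Slc22a3, an organic cation transporter gene with 23 and 6 tags, Kcng1, a potassium channel subunit gene with 20 and 5, Olfr1339, an odorant receptor gene with 15 and 2, and Scn10a, a sodium channel gene of sensory neurons with 14 and 2. On the promoter itself Kcng1 had 10 wild-type and 14 null tags, so no excess. Slc22a3 had 23 and 10 there, Olfr1339 12 and 4, and Scn10a 14 and 6. All 4 had a wild-type to null ratio of 1.20 to 1.36 between the peaks of their clusters, and none of these had a lower bound above 1.

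Adhesion and matrix genes by name pattern gave 1 of 67, against 18 of 661. It was Krt86 with 11 wild-type tags and 1 null tag, which encodes a hair keratin, a filament protein inside the cell, and so is in the list by its name alone. The promoter of Krt86 itself held 10 wild-type and 13 null tags, so the excess of the peak was not seen over the whole promoter. The cluster of Krt86 was well filled between its 5 peaks, with 277 and 249 tags and a ratio of 1.46 (1.23 to 1.74). Zinc finger genes gave 2 of 67, Zfp12 with 19 and 4 tags and Zfp287 with 13 and 2, against 7 of 661. The sequence between the peaks of the Zfp12 cluster held 7 tags of the wild-type and 31 of the null library, a ratio of 0.30 (0.11 to 0.69), from fewer than the 50 tags asked of clusters above. That of the Zfp287 cluster held 54 and 68, a ratio of 1.04 (0.71 to 1.51). The cluster with 2 promoters held Colec11, a collectin gene, with 15 and 3 tags and Rps7, a ribosomal protein gene, with 20 and 5. The lists were drawn up with earlier results of these data known, and with 1 to 4 genes each the counts describe them and no more.

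A larger table of the study classes promoters by H3K27me3 and H3K4me3. It was held here in part, with 1999 promoters, 636 with H3K27me3 only and 1363 with H3K4me3 only. Promoters with both marks or with neither, which the study also classed, were not among them. The autosomal ones numbered 1928, and their counts cannot be carried over to the whole. Of these, 26 lay in the spans of 25 clusters, 13 of 635 with H3K27me3 only (2.05%, 1.09 to 3.48) and 13 of 1293 with H3K4me3 only (1.01%, 0.54 to 1.71). The class with H3K27me3 included Cdx1, Hoxd4 and Slc22a3, and that with H3K4me3 included Ing1. The 4 promoters with H3K27me3 only that had no peak of their own held 65 tags of the wild-type and 47 of the null library, a ratio of 1.81 (1.23 to 2.70). On the 9 such promoters with H3K4me3 only there were 120 and 144, a ratio of 1.09 (0.85 to 1.40), but 6 of the 9 had a ratio below 1. Without Mgat3, which encodes a glycosyltransferase and alone held 33 and 11 tags, the ratio was 0.86 (0.65 to 1.13). Of the 4 promoters with H3K27me3 only, 1 had a ratio below 1, and without the highest of them the ratio was 1.64 (1.03 to 2.62). The intervals of both classes overlap with all promoters counted and also without the highest of each, and the promoters are few.

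As a control in the direction that the list does not cover, windows of 1 kb were called with either library as the test, at a Poisson p-value of 1e-05, which took 13 wild-type or 15 null tags, and 5 times the scaled tags of the other library. With the wild-type as test 0.395% of 2158271 covered windows were called, and with the null as test 0.163%. Touching windows were merged into 8385 wild-type and 3508 null regions. Of the wild-type regions 768 (9.16%) met the same 20 kb rule, against 199 expected from placement by tags, a quotient of 3.86. Of the null regions 7 met it, against 41.9 expected, a quotient of 0.17. The wild-type regions come from the same tags and thresholds as the list, 60.1% of them touched a listed peak and 178 of the 768 touched a member, so they are no separate evidence on the listed peaks. The null regions, which the list does not cover, had fewer close neighbours than the placement gave. The placement lets regions fall in the same or touching bins, whereas touching called windows were merged. Part of each expectation therefore cannot be met, and the share of this in the low null quotient was not tested. With distinct tags the calls were few, 948 and 74 regions, of which 17 and 0 met the rule, against 0.289 and 0.000153 expected.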

How the data were processed

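Tags of 25 bp were mapped to mm8 by the authors, who deposited each tag as 1 line with its position and strand, without normalization, and a list of peaks called with wild-type tags as input and null tags as background. For each peak the authors deposited the count of wild-type tags, the fold over the null library as a ratio, and a p-value; the p-value served only as a filter in an alternative. Tags were counted at their 5′ end shifted by 116 bp along the strand, which returned the deposited fold of 99.9% of peaks within 0.01. Other tag counts, ratios and intervals were computed here with Python 3.11.15, numpy 2.4.6, scipy 1.17.1 and pandas 2.3.3.

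Wild-type tags were scaled by 1.31, and distinct wild-type tags by 1.28. Intervals are Clopper-Pearson for shares and ratios and Poisson for counts, at 95%. With 1 library per genotype no test between genotypes was made. The expected number of members is the binomial expectation over 1 kb bins and was checked on simulated peaks. Expression values of the study's tables were not used. Members, gene lists and comparisons were chosen with earlier results of these data known. Genes and clusters named are the 10 clusters with the most members (ties by wild-type tags in peaks), the 5 highest and 5 lowest ratios between peaks among clusters with 50 or more tags there (the most extreme are printed), and of the promoter peaks those of the lists, the 10 with the most wild-type tags and those of clusters with 2 such genes; a gene that the rule takes in is not reported here. The alternatives concerned the neighbour distance, peak filters, placement weights, tag position, repeated positions, scale and bases left out beside peaks.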

Additional observations from a re-analysis of the deposited data

How the results depend on the processing

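Of 70 recomputed values 0 moved a ratio past 1, and 21 stayed within 1.5 times the count in the report or within the interval of its ratio. With neighbours within 10 kb there were 508 members in 239 clusters against 390.1 expected (1.30 times), and within 50 kb 5288 in 1506 against 3029.6 (1.75 times). Restricting the list to a p-value of at most 1e-07 gave 265 members in 116 clusters against 143 expected, with ratios of 8.57 in peaks, 1.33 between them, 1.29 in flanks and 1.12 around isolated peaks, and 46 clusters above 1 between peaks. Peaks with 9 or more distinct tags gave 271 members in 113 clusters against 83.7 expected (3.24 times), ratios of 7.78, 1.44, 1.38 and 1.20, and 58 clusters. The quotient was 1.68 with wild-type tags as weights, 2.36 with distinct tags, 1.83 with the number on each chromosome kept, and 1.14 against 1461 expected with that in each 1 Mb kept, which was added after seeing the data. Distinct tags gave ratios of 5.69, 1.27, 1.23 and 1.07, with 150 clusters of 50 or more distinct tags above 1, and 17 wild-type (58.7 times an expectation of 0.289) and 0 null regions meeting the rule, where 0.000153 null regions were expected, so that this 0 says nothing. Tags placed at the lower end of the alignment gave 8.51 in peaks. The scale from tags outside peaks gave 9.50, 1.36, 1.32 and 1.12. With no bases left out at peak edges the ratios were 1.21 between peaks, 1.25 in flanks and 1.04 around isolated peaks, the order of the first 2 being turned. With the 1 Mb around each cluster as scale the ratio between peaks was 1.09 and 98 clusters lay above 1. Counted by midpoint, 2.89% of members (2.14 to 3.81), 2.97% of paired peaks and 3.37% of isolated peaks (3.03 to 3.73) lay on promoters. Members then had the lowest share instead of the highest, with overlapping intervals. No paired analysis was possible because each genotype had 1 library. At a median of 15 wild-type tags per member, the ratio of a single peak has a wide interval. GC content and mappability were not analysed here.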
